A study of Bos taurus with 33 samples.

Results

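Solute carriers (SLC) are the membrane proteins that move amino acids, sugars, ions, metals, nucleotides and organic acids across the cell surface and the membranes of organelles. The genes described here are those in the array annotation whose symbol begins with SLC and a digit, without 7 genes of glucose and zinc transport (SLC2A1, SLC2A3, SLC2A4, SLC2A5, SLC2A8, SLC5A1 and SLC39A2). They number 172 of the 9155 genes with a single symbol on the array and are covered by 242 probe sets. Where a gene had several probe sets, as 49 did, the one of highest average signal was read. SLC4A1AP and SLC7A6OS keep SLC in their symbol without being transporters: SLC4A1AP encodes an adaptor protein and SLC7A6OS lies on the strand opposite SLC7A6.

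Endometrial RNA of 33 Bavarian Simmental heifers was measured on the Affymetrix GeneChip Bovine Genome Array, with 1 array per animal. All heifers had been synchronised with cloprostenol, a prostaglandin F2α analogue. Biopsies came from 3 heifers given a lipid extrudate that released human interferon alpha (IFNA), 3 given the extrudate alone (placebo) and 3 given phosphate-buffered saline (PBS). Each was placed through the cervix into the horn beside the corpus luteum on day 14 of the cycle, and about 6 biopsies per animal were taken on day 16 from the caudal part of that horn. In the pregnancy experiment, pregnant heifers had been inseminated with frozen sperm of a single bull, and cyclic heifers with sperm-free supernatant. Intercaruncular endometrium was taken at slaughter on day 12 (5 pregnant and 5 cyclic), day 15 (3 and 3) and day 18 (4 and 4), from the distal, medial and caudal part of the ipsilateral horn on these days in turn. Day and part of the horn therefore cannot be told apart. IFNA is of the same type I interferon family as interferon tau, which the ruminant conceptus secretes, but is a different protein.

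In the ruminant uterus, carriers in the endometrial epithelium load the histotroph, the fluid that feeds the conceptus before it implants, with amino acids, sugars, ions and metals. Most carriers of the SLC25 family sit in the inner mitochondrial membrane and exchange ADP for ATP, phosphate, metals, nucleotides and amino acids with the cytosol. The class of mitochondrial carriers below is this family as a whole, so it can hold members of other membranes, such as SLC25A17. Carriers of the SLC35 family bring nucleotide sugars into the Golgi apparatus, where glycoproteins are built. Others work as pairs, such as the heavy chain SLC3A2, which takes light chains of the SLC7 family to the cell surface.

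The 172 genes were sorted into 14 classes by substrate. The largest were amino acids and peptides (27 genes), mitochondrial carriers (27), metals and haem (20), and nucleotide sugars and other Golgi or reticulum substrates (20). Sodium, potassium, chloride, calcium, phosphate and sulphate came to 14 genes, organic ions, bile acids and hormones to 12, and protons, bicarbonate and exchanged anions to 10. Neurotransmitters, osmolytes and vesicular substrates held 9, vitamins and choline 8, sugars and polyols 7, fatty acids 5, carboxylates 5, and nucleosides and nucleobases 4. The last 4 genes, SLC46A2, SLC46A3, SLC4A1AP and SLC7A6OS, were left unassigned.

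Values are log2 expression levels as deposited, and differences are log2 differences ± SE from limma fitted to all 24016 probe sets. The spread of a probe set was shared by all arrays of its fit. An SE therefore does not measure the scatter of a single day or group. A gene counted as changed where the Benjamini-Hochberg adjusted p-value was under 0.05. Levels of different carriers were not set against each other. Percentiles within an array served as a rough check that markers were present and to mark low signals. They also described the same gene across cyclic days. The arrays fell into 4 sets of matching value distributions, the biopsies and each day of slaughter, and tests were kept within a set or made between differences taken within sets. The tissue label was checked on markers: the 7 stromal markers averaged percentile 92.5 to 99.9 of an array and 6 of 7 epithelial markers 82.6 to 99.4, with the epithelial keratin KRT8 at 24.3. The tissue is a mixture of cells, so fewer cells of a type and less RNA per cell cannot be told apart in any result below.

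With IFNA, a single carrier gene passed the threshold against placebo. SLC25A28, the mitochondrial iron importer mitoferrin 2, had 10.72, 10.6 and 10.46 in IFNA heifers, against 9.58, 9.12 and 9.88 in placebo heifers and 9.6, 9.57 and 9.87 in PBS heifers. All 3 IFNA animals lay above all 6 others. The difference from placebo was 1.07 ± 0.187, a 2.1-fold higher level (adjusted p = 0.0399), and the difference from PBS was 0.91 ± 0.187 (adjusted p = 0.0837). The call against placebo was lost when any IFNA animal, or placebo animal 1 or 2, was left out, with differences of 0.86 to 1.13 and adjusted p-values of 0.0642 to 0.164. The gene has 1 probe set on the array. Arrays of IFNA and placebo heifers did not overlap for 9.88% of the carriers, 10.5% of all probe sets and 11.9% of genes. For IFNA and PBS heifers the shares were 8.72%, 14.6% and 17.4%.

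**Figure D1:**
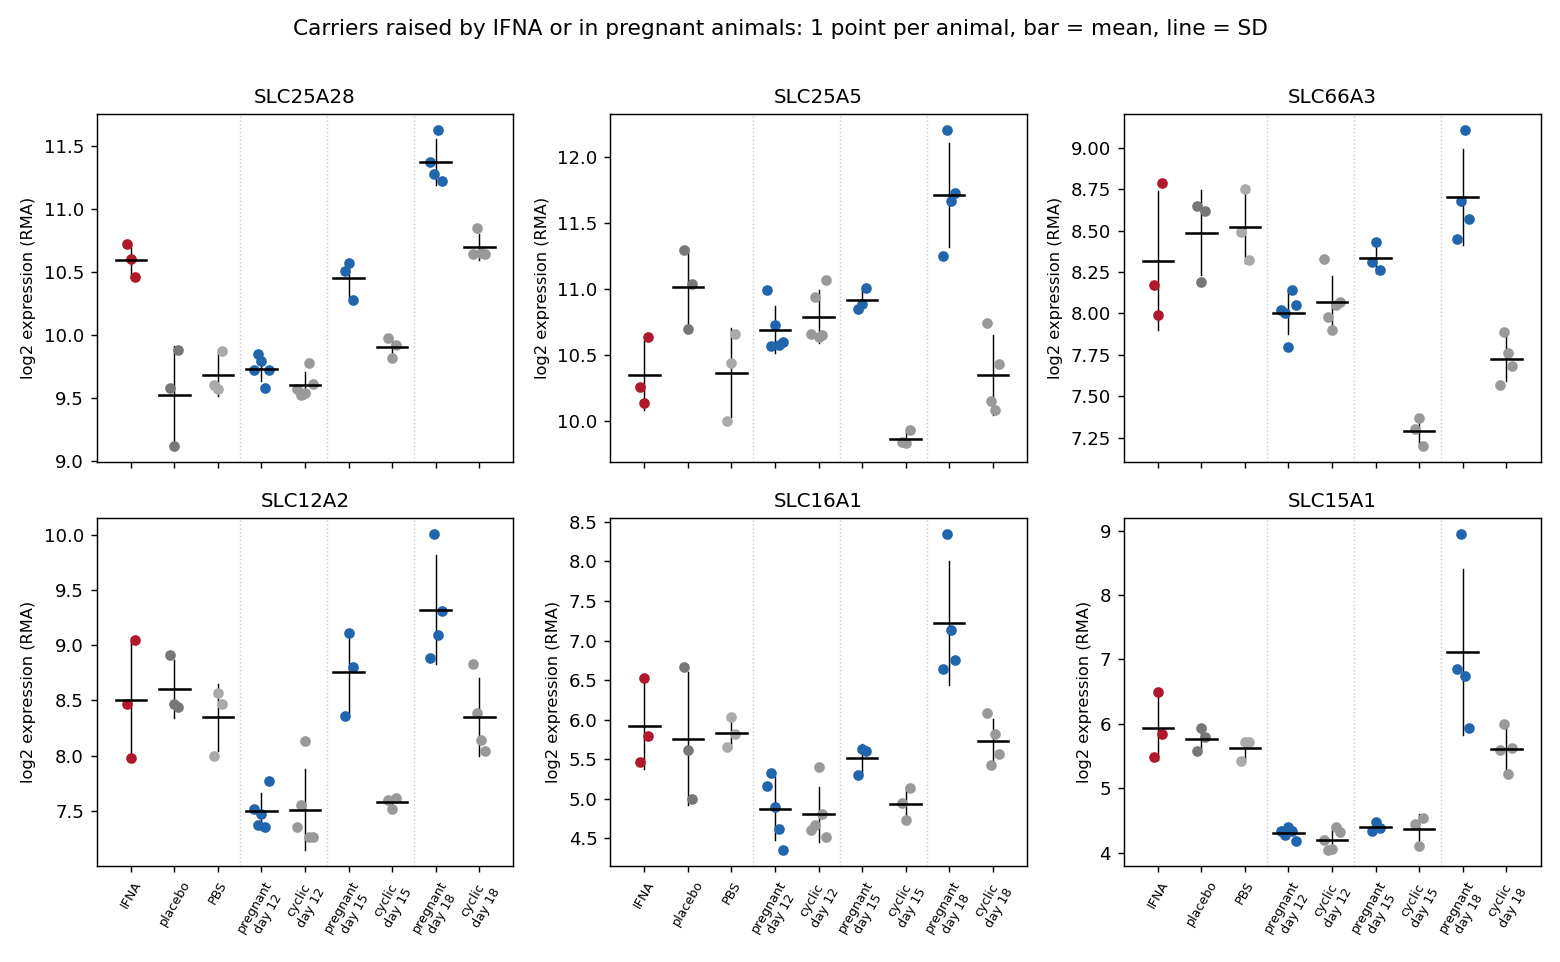
Log2 expression (RMA, vertical axis) of 6 carrier genes in the 9 groups (horizontal axis), with 1 point per animal, a bar at the mean and a line for the SD. SLC25A28 is higher in all 3 IFNA animals (10.46 to 10.72) than in the placebo and PBS animals (9.12 to 9.88), and on day 18 SLC25A5, SLC66A3, SLC12A2 and SLC16A1 do not overlap between pregnant and cyclic animals while SLC15A1 does. Dotted lines part sets of arrays whose levels are not comparable.

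The other 171 genes did not pass against placebo, and over all probe sets 0.866% passed, or 1.14% of the 9155 genes read by 1 probe set each. Against PBS, 0 of the 172 passed by limma, where 0.862% of all probe sets and 1.21% of genes did. An unadjusted p under 0.05 was found for 11 (6.4%, beside 9.34% of all probe sets). SLC38A5, a glutamine and glycine carrier of the cell surface, had the second smallest adjusted p after SLC25A28, with 6.5, 6.33 and 6.19 in IFNA heifers, against 5.72, 5.87 and 5.89 in placebo heifers and 6.1, 6.08 and 5.98 in PBS heifers. The IFNA animals lay above both controls (the shares without overlap are given above). The difference from placebo was 0.51 ± 0.108 (adjusted p = 0.0874). SLC25A30, a mitochondrial carrier, differed from placebo by 0.83 ± 0.248 (adjusted p = 0.304) and from PBS by 0.51 ± 0.248. The medians of the 172 differences were -0.018 against placebo and 0.027 against PBS, beside -0.02 and -0.007 for all probe sets.

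Placebo and PBS differed in 0 of the 172 genes by limma, as in 0% of all probe sets. An unadjusted p under 0.05 was found for 4 genes (2.33%, beside 2.71% of all probe sets). SLC25A5, the ADP/ATP exchanger ANT2 of the inner mitochondrial membrane, had 11.3, 10.7 and 11.04 in placebo heifers, against 10, 10.44 and 10.66 in PBS heifers, a difference of 0.65 ± 0.217 (adjusted p = 0.999). The placebo animals lay above the PBS animals. IFNA heifers had 10.26, 10.14 and 10.64, all within the PBS range, and the difference of IFNA from placebo was -0.67 ± 0.217 (adjusted p = 0.365) and from PBS -0.02 ± 0.217. Arrays of placebo and PBS heifers did not overlap for 8.14% of the carriers, 6.24% of all probe sets and 6.96% of genes.

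Markers of other cells moved with IFNA. Of 7 markers of macrophages and dendritic cells measured, 3 rose against placebo (CSF1R, C1QB and C1QC). The mean of this list ran from 7.78 to 8.12 in IFNA heifers, against 6.84 to 7.32 in placebo heifers and 7.08 to 7.42 in PBS heifers, and the IFNA animals lay above both controls, as for SLC25A28. IGHM, the heavy chain of immunoglobulin M and a B cell marker, rose against placebo by 1.6 ± 0.288 (adjusted p = 0.0463), and the 4 markers of B and plasma cells averaged 6.65 to 6.82 in IFNA heifers, against 5.94 to 6.31 in placebo heifers and 6.2 to 6.34 in PBS heifers. The separation was not particular to these lists. The 7 T and NK cell markers averaged 6.5 to 6.7 in IFNA heifers, against 5.92 to 6.43 with placebo and 6.11 to 6.45 with PBS. The 5 neutrophil markers averaged 5.77 to 5.92 in IFNA heifers, below the 6.05 to 6.79 of placebo and 6.7 to 6.77 of PBS heifers. In both of these lists 0 markers passed by limma against either control. Against PBS, C1QB and C1QC rose and the endothelial markers PECAM1 and PLVAP fell. ITGAM, a further macrophage marker, was at percentile 4.6 of an array. The part of these cells in the difference of SLC25A28 was not tested. RNA of the biopsies gave a 3′ signal of GAPDH above the 5′ signal by 2.38 log2 with IFNA, 2.58 with placebo and 2.67 with PBS (SD 0.67, 1.44 and 0.94, n = 3 each), beside group means of -0.11 to 0.46 at slaughter.

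On day 12, pregnant and cyclic endometrium differed in 0 of the 172 genes by limma, and 0.00416% of all probe sets and 0.0109% of genes passed. Unadjusted p-values were under 0.05 for 17 genes (9.88%, beside 6.65% of all probe sets), with the smallest adjusted p at 0.423. That gene was SLC25A42, a mitochondrial carrier of coenzyme A, with a difference of -0.26 ± 0.071. The arrays of the 2 groups did not overlap for 3 genes, SLC25A42, SLC6A9 (a glycine carrier, -0.34 ± 0.094) and SLC17A5 (sialin, which exports sialic acid from lysosomes, -0.27 ± 0.077), which were named after their values were seen. That is 1.74% of the carriers, beside 0.954% of all probe sets and 1.13% of genes. The largest difference of the 172 was that of SLC38A11, at -0.82 ± 0.335.

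On day 15, 11 of the 172 genes passed the threshold (6.4%, beside 5.07% of all probe sets and 6.38% of genes), so the share was that of genes in general. They were 9 higher and 2 lower in pregnant heifers (5.23% and 1.16%), where 2.75% and 2.32% of all probe sets and 4.04% and 2.34% of genes were. The arrays of pregnant and cyclic heifers did not overlap for any of the 11. With 3 animals a group this was common: they did not overlap for 25% of the carriers, 22.7% of all probe sets and 26.9% of genes. SLC12A2, SLC25A5 and SLC66A3 rose by more than 1 log2.

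SLC12A2 (NKCC1, the sodium, potassium and chloride cotransporter that fills epithelial cells with chloride) had 8.36, 9.11 and 8.8 in pregnant heifers, against 7.6, 7.52 and 7.62 in cyclic heifers. The difference was 1.18 ± 0.255, a 2.26-fold higher level (adjusted p = 0.00823), and the other probe set of the gene gave 1.28 ± 0.297 (adjusted p = 0.0135). The pregnant animals were more widely spread than the cyclic animals.

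SLC25A5 had 10.85, 10.89 and 11.01 in pregnant heifers, against 9.84, 9.83 and 9.93 in cyclic heifers. The animals of a group lay close together, and the difference was 1.05 ± 0.185 (adjusted p = 0.00121). The other probe set annotated to SLC25A5 gave 0.04 ± 0.193, so the 2 probe sets disagreed, and their mean gave 0.54 (adjusted p = 0.0312). SLC25A6, a close relative with nearly the same protein whose transcripts can share probes with it, gave 0, -0.04 and -0.13 in its 3 probe sets.

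SLC66A3 had 8.31, 8.43 and 8.26 in pregnant heifers, against 7.3, 7.37 and 7.2 in cyclic heifers, a difference of 1.04 ± 0.132 (adjusted p = 1.96e-05). It had the smallest adjusted p of the 172 on this day. It encodes a PQ-loop membrane protein and was counted with the amino acid carriers because its relative SLC66A1 exports cationic amino acids from lysosomes. Its own substrate is not settled.

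Amino acid carriers of the cell surface were among the smaller rises on day 15. SLC1A5 (ASCT2, the exchanger of glutamine and other neutral amino acids) had 7.22, 7.03 and 7.45 in pregnant heifers, against 6.86, 6.52 and 6.51 in cyclic heifers, a difference of 0.6 ± 0.152 (adjusted p = 0.0217). SLC3A2 (4F2hc, the heavy chain of several amino acid exchangers) had 8.59, 8.54 and 8.52, against 8.33, 8.16 and 8.21, a difference of 0.32 ± 0.078 (adjusted p = 0.0195). With SLC66A3, 3 of 27 amino acid and peptide carriers rose and 0 fell by limma, and the median difference of the class was -0.02.

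Of 27 mitochondrial carriers, 4 rose on day 15 and 0 fell. Beside SLC25A5 they were SLC25A28 with 0.55 ± 0.102 (adjusted p = 0.00218), SLC25A33 with 0.5 ± 0.118 (adjusted p = 0.0148) and SLC25A3 with 0.41 ± 0.097 (adjusted p = 0.016). SLC25A33 carries pyrimidine nucleotides and SLC25A3 brings in the phosphate used to make ATP. SLC25A28 had 10.51, 10.57 and 10.28 in pregnant heifers, against 9.98, 9.82 and 9.92 in cyclic heifers. The median difference of the class was 0.02.

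One gene each passed in 4 further classes. SLC44A4, a carrier described for choline and thiamine pyrophosphate, was higher by 0.65 ± 0.147 (adjusted p = 0.0114) in pregnant heifers. SLC4A7, the sodium bicarbonate cotransporter NBCn1, had 6.81, 7.12 and 7.07 in pregnant heifers, against 7.33, 7.62 and 7.35 in cyclic heifers, a difference of -0.43 ± 0.105 (adjusted p = 0.0172). SLC39A9, the zinc carrier ZIP9, differed by -0.25 ± 0.07 (adjusted p = 0.038), and its other probe set by 0.01. The mean of both gave -0.12 (adjusted p = 0.343). SLC12A2, given above, was the 1 of 14 carriers of simple ions that passed.

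With 3 animals a group, single animals decided part of the day 15 count. Without cyclic animal 2 the count was 5, without cyclic animal 3 it was 7 and without pregnant animal 1 it was 5. SLC12A2, SLC25A5, SLC25A28 and SLC66A3 passed without any 1 animal, and the other 7 lost the call in at least 1 such fit, with differences of 0.28 to 0.61 for those higher and -0.34 to -0.2 for those lower. When the 6 arrays of day 15 were fitted alone, 4 genes passed.

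On day 18, 39 of the 172 genes passed (22.7%, beside 19% of all probe sets and 23% of genes), again a share like that of genes in general. They were 24 higher in pregnant heifers (14%, beside 8.84% of all probe sets and 12.6% of genes) and 15 lower (8.72%, beside 10.2% and 10.4%). The arrays did not overlap for 29 of the 39, and for 20.9% of the carriers, 21% of all probe sets and 24.6% of genes. The median of the 172 differences was 0.016, beside -0.027 for all probe sets and -0.015 for genes. Left out 1 at a time, the 8 animals gave counts of 29 to 43.

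**Figure D2:**
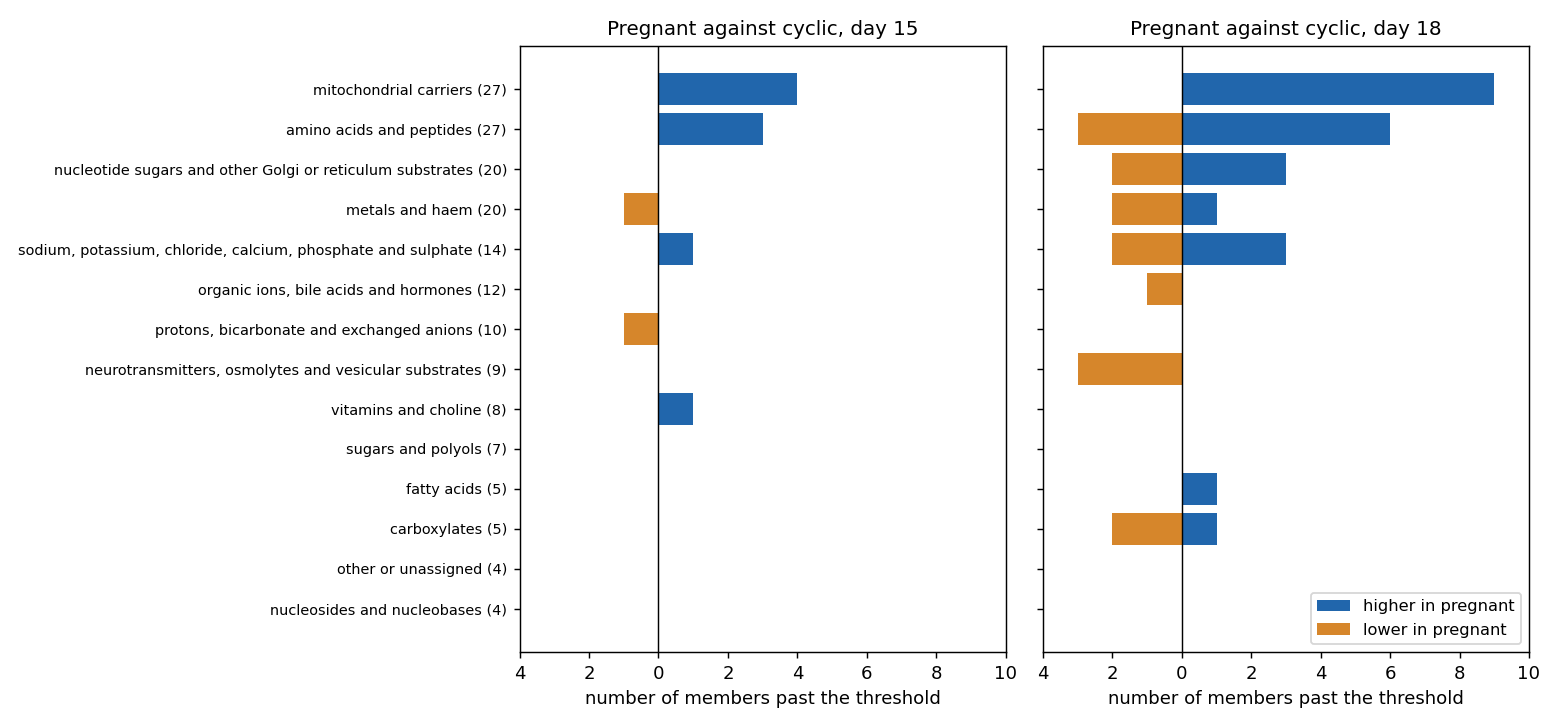
Number of members past the threshold (horizontal axis, higher in pregnant to the right, lower to the left) in each of 14 substrate classes (vertical axis, number of members in brackets) on day 15 (left) and day 18 (right). Mitochondrial carriers have 9 of 27 members higher and 0 lower on day 18, and neurotransmitter, osmolyte and vesicular carriers 3 of 9 lower and 0 higher.

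Mitochondrial carriers held 9 of the 24 rises, of 27 members, with 0 falls by limma and 18 that did not pass. SLC25A5 had 11.25, 12.21, 11.67 and 11.73 in pregnant heifers, against 10.74, 10.15, 10.08 and 10.43 in cyclic heifers, a difference of 1.37 ± 0.16 or a 2.58-fold higher level (adjusted p = 2.31e-06). The 2 groups did not overlap. The other probe set of SLC25A5 again gave a smaller difference, 0.22 ± 0.167 (adjusted p = 0.398), and the mean of both gave 0.79 (adjusted p = 0.000117). The probe sets of SLC25A6 gave 0.04, -0.03 and -0.03.

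SLC25A28 had 11.37, 11.28, 11.63 and 11.22 in pregnant heifers, against 10.64, 10.85, 10.65 and 10.64 in cyclic heifers. The groups did not overlap, and the difference was 0.68 ± 0.088 (adjusted p = 9.7e-06). It was thus the 1 carrier past the threshold with IFNA against placebo and in pregnant heifers on both day 15 and day 18.

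The other mitochondrial rises were SLC25A30 with 0.86 ± 0.135, SLC25A48 with 0.82 ± 0.239, SLC25A25 (an ATP-magnesium and phosphate exchanger) with 0.56 ± 0.121, SLC25A33 with 0.49 ± 0.102, SLC25A12 (the aspartate and glutamate exchanger aralar) with 0.4 ± 0.107, SLC25A3 with 0.34 ± 0.084 and SLC25A29 (a carrier of basic amino acids) with 0.28 ± 0.085. Their adjusted p-values ran from 0.000105 for SLC25A30 to 0.0229 for SLC25A29. The second probe set of SLC25A25 gave 0.08 ± 0.105, and the mean of both 0.32 (adjusted p = 0.00746). With the mean over its probe sets SLC25A12 gave 0.34 (adjusted p = 0.0748). SLC25A48 rested in part on pregnant animal 3, at 7.48 beside 6.53, 6.06 and 5.97, and without it the difference was 0.49 (adjusted p = 0.0782). The median difference of the 27 mitochondrial carriers was 0.04.

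Amino acid and peptide carriers moved in both directions, with 6 of 27 higher and 3 lower. SLC15A1 (PEPT1, the proton-driven importer of dipeptides and tripeptides) had 6.85, 8.95, 6.74 and 5.93 in pregnant heifers, against 5.6, 6, 5.22 and 5.62 in cyclic heifers. The difference was 1.51 ± 0.361 (adjusted p = 0.00506). Pregnant animal 4 fell below cyclic animal 2, and animal 2 was far above the rest. Without pregnant animal 2 the difference was 0.9 (adjusted p = 0.0016). With the arrays of day 18 fitted alone, SLC15A1 did not pass. On day 15 the gene had 4.33, 4.48 and 4.39 in pregnant heifers, against 4.45, 4.1 and 4.54 in cyclic heifers, and its difference was 0.04 ± 0.417.

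SLC38A5 had 6.98, 7.3, 7.06 and 7.42 in pregnant heifers, against 6.2, 6.28, 6.24 and 6.45 in cyclic heifers. The groups did not overlap, and the difference was 0.9 ± 0.118 (adjusted p = 1.06e-05). SLC66A3 had 8.45, 8.68, 9.11 and 8.57, against 7.57, 7.89, 7.76 and 7.68, a difference of 0.98 ± 0.114 (adjusted p = 2.21e-06). SLC7A9, the light chain of a cystine and basic amino acid exchanger, was higher by 0.64 ± 0.13, SLC1A5 by 0.38 ± 0.131 and SLC3A2 by 0.38 ± 0.068. SLC1A5 lost its call without any of 5 animals, and without pregnant animal 3 its difference was 0.23 (adjusted p = 0.194).

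The 3 amino acid carriers that fell were SLC6A20 (a proline carrier), SLC43A1 (LAT3, a carrier of large neutral amino acids) and SLC38A3 (the glutamine carrier SNAT3). SLC6A20 had 6.17, 5.29, 6.24 and 5.72 in pregnant heifers, against 6.21, 6.93, 6.34 and 7.2 in cyclic heifers. Pregnant animal 3 lay just above cyclic animal 1, and the difference was -0.81 ± 0.222 (adjusted p = 0.0124). SLC43A1 differed by -0.4 ± 0.125 and SLC38A3 by -0.32 ± 0.086. The median difference of the 27 amino acid and peptide carriers was 0.07.

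**Figure D3:**
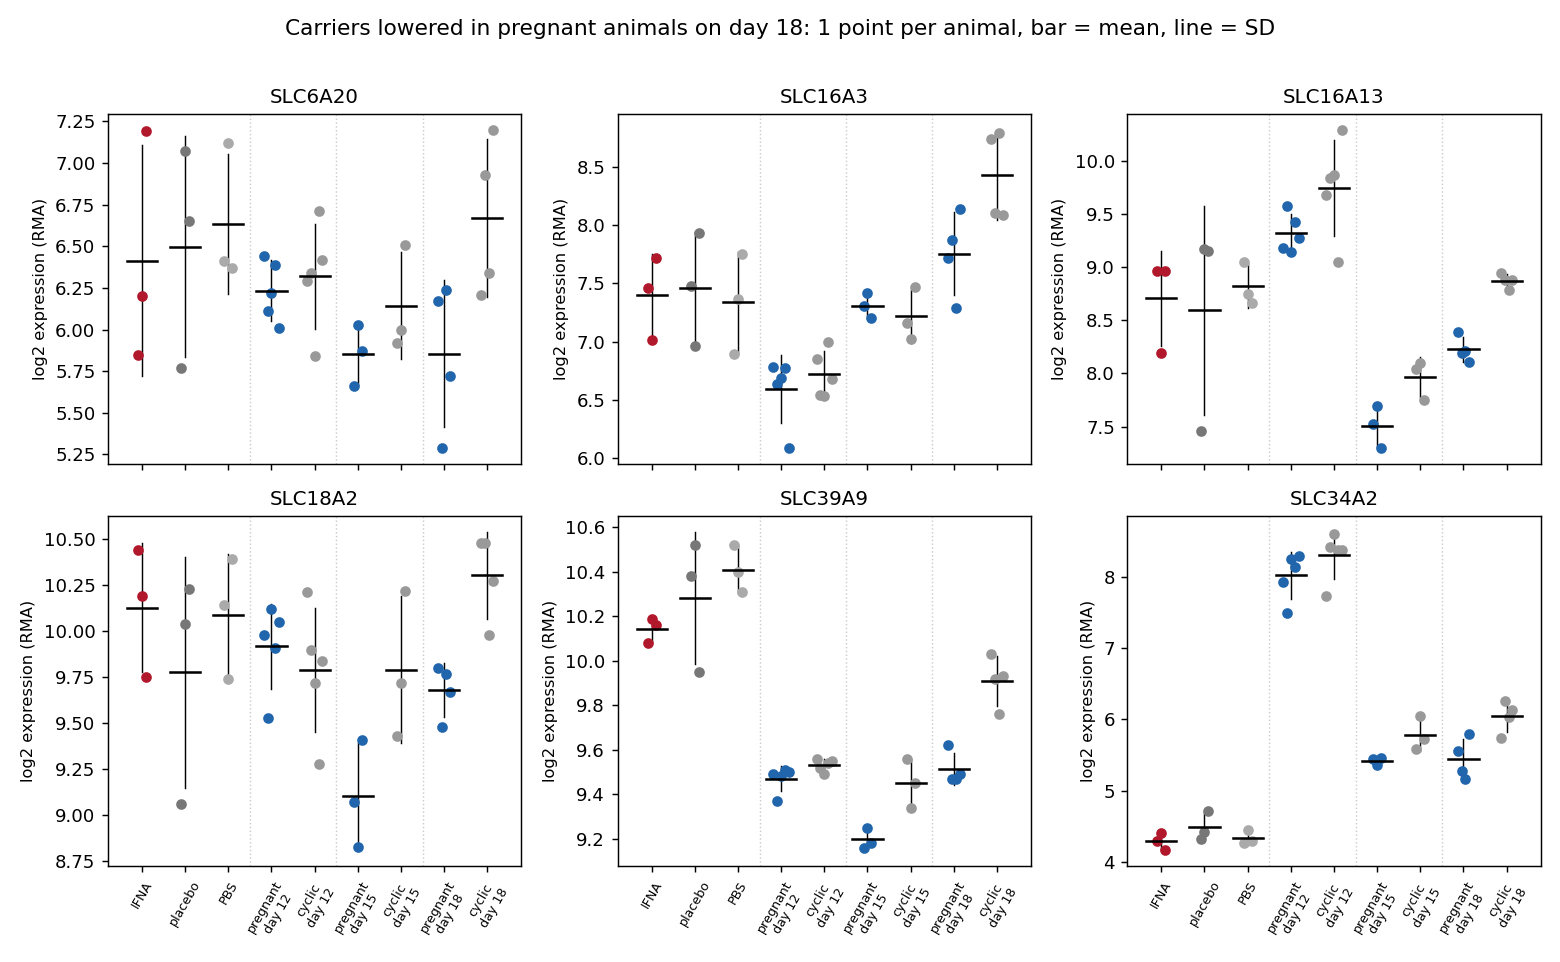
Log2 expression (RMA, vertical axis) of 6 carrier genes that were lower in pregnant heifers on day 18, in the 9 groups (horizontal axis), with 1 point per animal, a bar at the mean and a line for the SD. On day 18 SLC16A13, SLC18A2 and SLC39A9 do not overlap between pregnant and cyclic animals, and SLC6A20, SLC16A3 and SLC34A2 do. Dotted lines part sets of arrays whose levels are not comparable.

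The monocarboxylate carriers, which move lactate, pyruvate and ketone bodies with a proton, went both ways. SLC16A1 (MCT1) had 6.64, 8.35, 7.13 and 6.75 in pregnant heifers, against 6.08, 5.43, 5.82 and 5.57 in cyclic heifers. The groups did not overlap, and the difference was 1.49 ± 0.282, a 2.81-fold higher level (adjusted p = 0.000674). SLC16A3 (MCT4, known for lactate export) had 7.72, 7.87, 7.29 and 8.14, against 8.74, 8.1, 8.79 and 8.09. Pregnant animal 4 lay above 2 of the cyclic animals, and the difference was -0.67 ± 0.188 (adjusted p = 0.0144).

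SLC16A13 had 8.39, 8.19, 8.21 and 8.11 in pregnant heifers, against 8.94, 8.88, 8.78 and 8.88 in cyclic heifers, a difference of -0.64 ± 0.167 (adjusted p = 0.00883). Its other probe sets gave -0.67 (adjusted p = 0.0213) and -0.28 (adjusted p = 0.119). On day 15, SLC16A1 had 5.3, 5.63 and 5.6 in pregnant heifers, against 4.94, 4.73 and 5.14 in cyclic heifers. These did not overlap either, but the difference of 0.57 ± 0.326 did not pass (adjusted p = 0.374). That SE is shared with day 12 and day 18, where the pregnant animals of day 18 were widely spread. With the arrays of day 15 fitted alone the gene did not pass either.

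Of 14 carriers of simple ions, 3 rose and 2 fell on day 18. SLC12A2 had 8.88, 10.01, 9.09 and 9.31 in pregnant heifers, against 8.83, 8.39, 8.14 and 8.04 in cyclic heifers. The lowest pregnant animal was just above the highest cyclic animal, and the difference was 0.97 ± 0.221 (adjusted p = 0.00334), with 0.96 ± 0.257 in the other probe set. SLC12A4 (the potassium and chloride cotransporter KCC1) was higher by 0.33 ± 0.096 and SLC5A5 (the sodium iodide symporter) by 0.31 ± 0.088. The signal of SLC5A5 was low, at percentile 9.8 of an array, and its call was lost with quantile normalisation over all 33 arrays. The 2 that fell import phosphate. SLC34A2 had 5.55, 5.27, 5.17 and 5.79 in pregnant heifers, against 5.74, 6.26, 6.03 and 6.13 in cyclic heifers, which overlapped, with a difference of -0.59 ± 0.182 (adjusted p = 0.0251). SLC20A2 differed by -0.42 ± 0.139 (adjusted p = 0.0373).

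Carriers of neurotransmitters, osmolytes and vesicles had 3 of 9 members lower and 0 higher. SLC18A2 (VMAT2, which loads monoamines into vesicles) had 9.8, 9.48, 9.77 and 9.67 in pregnant heifers, against 10.48, 10.48, 9.98 and 10.27 in cyclic heifers, a difference of -0.62 ± 0.184 (adjusted p = 0.0203). On day 15 its difference was -0.69 ± 0.212 (adjusted p = 0.0638). SLC6A8, the creatine importer, differed by -0.53 ± 0.137 on day 18, with -0.29 ± 0.186 in its other probe set and -0.41 for the mean of both (adjusted p = 0.0621), and SLC17A5 by -0.32 ± 0.087.

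Among 20 nucleotide sugar and other Golgi or reticulum carriers, 3 rose and 2 fell. SLC35C1, which brings GDP-fucose into the Golgi, had 8.1, 9.67, 8.19 and 8.75 in pregnant heifers, against 7.79, 7.64, 7.57 and 7.67 in cyclic heifers. The difference was 1.01 ± 0.207 (adjusted p = 0.00142), and its other probe set gave 0.06 ± 0.1, with 0.53 for the mean of both (adjusted p = 0.00231). SLC35B1, an exchanger of ATP for ADP at the endoplasmic reticulum, was higher by 0.45 ± 0.09 and SLC37A2, a sugar phosphate exchanger, by 0.38 ± 0.089. SLC35E2B and SLC35E3, whose substrates are not known, fell, with differences of -0.45 ± 0.079 and -0.28 ± 0.096.

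Of 20 metal and haem carriers, 1 rose and 2 fell, all of them zinc carriers. SLC39A1 (the importer ZIP1) was higher by 0.36 ± 0.085. SLC39A9 had 9.62, 9.47, 9.47 and 9.49 in pregnant heifers, against 10.03, 9.92, 9.76 and 9.93 in cyclic heifers, a difference of -0.4 ± 0.061 (adjusted p = 8.08e-05), and -0.17 ± 0.068 in its other probe set. SLC30A5 (ZnT5, which moves zinc into the secretory pathway) differed by -0.42 ± 0.145 (adjusted p = 0.0491). SLC11A1, an iron and manganese carrier of phagocyte vesicles, did not pass at 0.33 ± 0.127 (adjusted p = 0.0744).

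In the remaining classes, SLC27A5, a fatty and bile acid CoA ligase, was higher by 0.69 ± 0.154 (adjusted p = 0.00275). SLC22A17, described as a receptor for lipocalin 2, fell, with a difference of -0.51 ± 0.126 (adjusted p = 0.00627). None of the 10 proton, bicarbonate and anion carriers, the 8 vitamin and choline carriers, the 7 sugar carriers and the 4 nucleoside carriers passed by limma on day 18. The vitamin carrier SLC46A1 gave -0.16 ± 0.091, but its other probe sets gave 0.44 ± 0.124 (adjusted p = 0.0155) and 0.06 ± 0.106. In other classes, SLC8A1 (-0.43 and -0.46), SLC35A2 (-0.24) and SLC13A4 (-0.33) passed only in probe sets that were not read. SLC52A3, a riboflavin carrier named after its values were seen, had 4.97, 7.43, 4.28 and 4.79 in pregnant heifers, against 4.31, 4.19, 4.39 and 4.31 in cyclic heifers. Its difference of 1.07 ± 0.392 did not pass (adjusted p = 0.0607), and 1 animal stood far above the others.

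SLC27A2, an acyl-CoA synthetase of long fatty acids also named after its values were seen, did not pass on either day. It had 8.28, 6.99 and 6.73 in pregnant heifers on day 15, against 6.07, 5.95 and 6.01 in cyclic heifers, a difference of 1.32 ± 0.432 (adjusted p = 0.0811). On day 18 its difference was 1 ± 0.374 (adjusted p = 0.0654). SLC27A6, a relative known in cattle for milk fat synthesis, had 6.59, 5.39, 8.73 and 5.78 in pregnant heifers on day 18, against 6.31, 6.87, 5.72 and 6.12 in cyclic heifers, and its difference was 0.37 ± 0.51.

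The leading rises on day 18 did not come evenly from the animals. Pregnant animal 2 was the highest of its group for 11 of the 24 genes that rose and the lowest for 7 of the 15 that fell. It gave the highest value of SLC25A5, SLC12A2, SLC16A1, SLC15A1 and SLC35C1. Without it 29 genes passed. Of the 39 genes, 26 passed without any 1 animal. The other 13, which lost the call in at least 1 such fit, were SLC1A5, SLC5A5, SLC6A20, SLC12A4, SLC16A3, SLC18A2, SLC20A2, SLC25A29, SLC25A48, SLC30A5, SLC34A2, SLC35E3 and SLC43A1. Their differences in the fits without a call ran from 0.23 to 0.49 for those higher and from -0.64 to -0.2 for those lower. The 26 were not all stable to other changes of the fit. SLC15A1, SLC22A17, SLC25A3, SLC35C1 and SLC38A3 lost the call when the arrays of day 18 were fitted alone. SLC17A5 lost it with the replicate number as a block.

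Markers of other cells also moved in pregnant heifers. On day 18, 4 of 7 macrophage and dendritic cell markers rose (CSF1R, C1QA, C1QB and C1QC), and the mean of the list ran from 8.3 to 8.79 in pregnant heifers, against 7.51 to 7.75 in cyclic heifers. IGHM rose by 1.28 ± 0.198 (adjusted p = 8.51e-05), while the means of the B and plasma cell list, 7.1 to 7.72 in pregnant heifers and 6.44 to 7.96 in cyclic heifers, overlapped. In the same comparison 4 of 7 endothelial markers fell (PECAM1, KDR, VWF and PLVAP), with list means of 7.63 to 7.86 in pregnant heifers, against 7.99 to 8.63 in cyclic heifers. On day 15 PECAM1 fell too, by 0.69, and the list means were 6.82 to 7.21 in pregnant heifers, against 7.12 to 7.45 in cyclic heifers. Of the epithelial markers CDH1 and CLDN4 rose on both days, and KRT18 fell on day 18. The epithelial list means were 9.6 to 9.67 in pregnant heifers on day 15, against 9.33 to 9.44 in cyclic heifers, without overlap. On day 18 they were 9.98 to 10.26 in pregnant heifers, against 9.81 to 10.14 in cyclic heifers, and overlapped. Of 5 neutrophil markers measured, S100A8 and S100A12 rose on day 18, by 0.91 ± 0.234 and 2.41 ± 0.284. The median difference of the 5 was 0.05, with a range of -0.13 to 2.41, so the list as a whole did not rise. Its means, 6.3 to 6.7 in pregnant heifers, against 5.7 to 5.85 in cyclic heifers, rest largely on these 2 genes. On day 15 S100A12 alone of the 5 passed, with a rise of 1.23 ± 0.328, and the median difference of the list was 0.13. The list means were 5.65 to 5.67 in pregnant heifers, against 5.08 to 5.56 in cyclic heifers. Of 7 stromal markers PDGFRA rose on both days, by 0.63 ± 0.164 and 0.48 ± 0.142, and COL3A1 fell on day 18, by 0.46.

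The part of these cells in the differences of the carriers was not tested. Of 7 trophoblast markers, 0 passed by limma on day 15 or 18. Their list mean was 4.73 to 4.81 in pregnant heifers on day 18, against 4.66 to 4.78 in cyclic heifers, and 4.39 to 4.45 on day 15, against 4.18 to 4.38. The day 15 means did not overlap, and the differences of the 7 markers on that day ran from 0 to 0.27. In percentiles of an array, TKDP1 averaged 52, IFNT2 29.5, PAG8 21.7, PAG11 15 and CSH2 12.1. PAG2, a pregnancy-associated glycoprotein, and PRP1, a prolactin-related protein, were lowest at 3.3 and 3.7.

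Several genes long studied in the ruminant uterus did not pass on either day in the probe set read. SLC7A1 (CAT1, the importer of arginine and lysine) had 8.24, 8.04 and 8.25 in pregnant heifers on day 15, against 7.97, 7.72 and 7.91 in cyclic heifers. The arrays did not overlap, and the difference was 0.31 ± 0.146 (adjusted p = 0.252). On day 18 it had 7.81, 7.77, 8.03 and 7.84, against 7.57, 7.58, 7.5 and 7.63, again without overlap, and 0.29 ± 0.126 (adjusted p = 0.113). SLC7A5 (LAT1, the light chain for large neutral amino acids) differed by -0.62 ± 0.299 on day 15 and by 0.39 ± 0.259 on day 18.

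SLC38A2 (SNAT2, a carrier of small neutral amino acids) differed by -0.17 ± 0.131 on day 15 and 0.19 ± 0.113 on day 18. Its other probe set gave 0.02 ± 0.212 and -0.17 ± 0.184, of opposite sign on both days. SLC1A4, a serine and alanine exchanger, had differences of -0.37 ± 0.244 and -0.41 ± 0.211 on these days. Its other probe set gave 0.02 ± 0.12 and -0.33 ± 0.104, and passed on day 18 (adjusted p = 0.0265). The mean of both gave -0.37 on day 18 (adjusted p = 0.0852). SLC1A1, a glutamate importer, had -0.05 ± 0.352 and -0.41 ± 0.305. SLC11A2 (DMT1, the iron importer) differed by 0.13 ± 0.197 and -0.05 ± 0.17. SLC7A2, SLC7A8, SLC15A3, SLC40A1, SLC26A2, SLC2A10 and SLC2A12 were not analysed here.

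Partners of the carriers were read from lists of genes that work with them. On day 18, when 19% of all probe sets and 23% of genes passed, 2 of 7 organic anion transporting polypeptides rose. They were SLCO2B1 by 0.91 ± 0.151 and SLCO4C1, of low signal at percentile 12.5 of an array, by 1.37 ± 0.263. Of 8 carbonic anhydrases and related proteins and chloride channels, CA4 rose by 1.07 ± 0.216 and CA8 differed by -0.94 ± 0.278, and of 7 sodium pump subunits FXYD1 differed by -0.56 ± 0.127. None of 8 genes of metal storage and handling and none of 4 accessory proteins of carriers passed by limma. On day 15 and with IFNA against placebo, 0 genes of these 5 lists passed.

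Both days of pregnancy could be set side by side because each had its own cyclic animals. Of the 11 genes past the threshold on day 15, 9 passed in the same direction on day 18, which is 81.8% of the day 15 genes and 23.1% of the day 18 genes. SLC1A5, SLC3A2, SLC12A2, SLC25A3, SLC25A5, SLC25A28, SLC25A33 and SLC66A3 were higher on both days and SLC39A9 lower. SLC44A4 and SLC4A7 passed on day 15 alone, and on day 18 differed by 0.14 ± 0.127 and -0.09 ± 0.091. Of the 39 day 18 genes, 34 had the same sign on day 15.

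**Figure D4:**
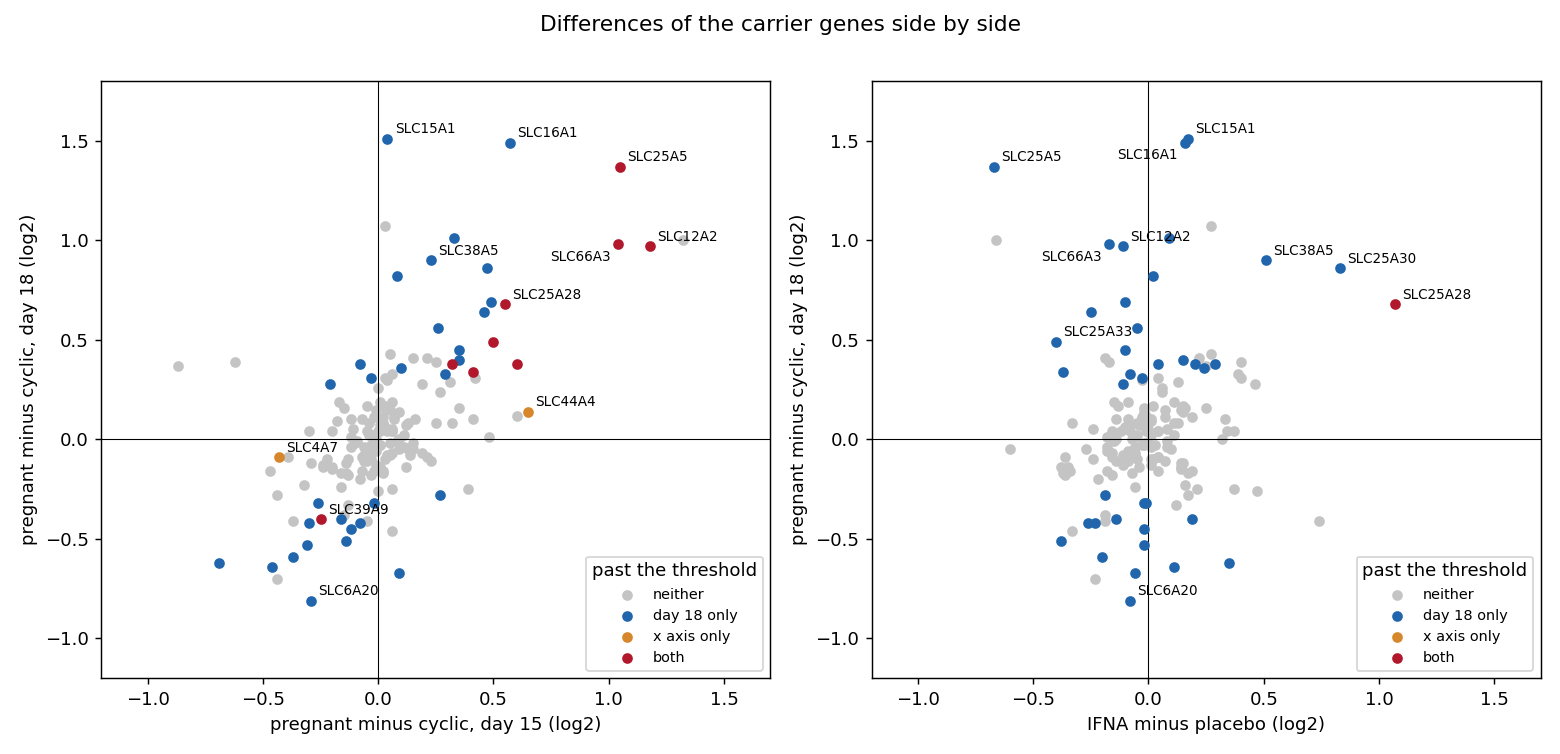
Log2 differences of the 172 carrier genes: pregnant minus cyclic on day 18 (vertical axes) against pregnant minus cyclic on day 15 (left) and against IFNA minus placebo (right), with colours for genes past the threshold in neither, one or both comparisons. The 9 genes past it on both days lie on the same side of 0, and SLC25A28 is the 1 gene past it with IFNA and on day 18, at 1.07 and 0.68.

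The change of the pregnancy difference between days was tested as an interaction. From day 12 to day 15 it grew for 4 genes and shrank for 0, which is 2.33%, beside 1.99% of all probe sets and 2.53% of genes in either direction. These were SLC66A3 by 1.11 ± 0.167 (adjusted p = 0.000332), SLC25A5 by 1.15 ± 0.234 (adjusted p = 0.00844), SLC25A33 by 0.72 ± 0.149 (adjusted p = 0.00947) and SLC3A2 by 0.39 ± 0.099 (adjusted p = 0.039). With the mean over its 2 probe sets SLC25A5 gave 0.57 and did not pass (adjusted p = 0.118). SLC3A2 lost the call without any of 11 of the 16 animals, with 0.36 to 0.41. From day 15 to day 18, 0 genes passed by limma, beside 0.208% of all probe sets and 0.251% of genes. An unadjusted p under 0.05 was found for 19 (11%, beside 9.27% of all probe sets). The difference between the days was thus not shown for SLC15A1, SLC16A1 or any other carrier.

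The IFNA difference from placebo was tested against the pregnancy difference over all 33 arrays. Against day 15 it was smaller for 4 genes and larger for 0, beside 0.371% of all probe sets and 0.502% of genes, and against day 18 smaller for 6 and larger for 0, beside 1.09% and 1.45%. SLC25A5 led both, by -1.72 ± 0.284 (adjusted p = 0.00648) and -2.03 ± 0.266 (adjusted p = 0.00011). With the mean over its 2 probe sets it gave -0.86, which did not pass (adjusted p = 0.0695), and -1.11 (adjusted p = 0.00355). SLC66A3 followed with -1.21 ± 0.237 and -1.15 ± 0.222, SLC25A33 with -0.9 ± 0.187 and -0.9 ± 0.175, and SLC25A3 with -0.77 ± 0.158 and -0.71 ± 0.148. Against day 18 SLC7A9 (-0.88 ± 0.202) and SLC35B1 (-0.55 ± 0.139) passed too.

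These terms rest partly on the placebo animals. SLC66A3 had 8.17, 7.99 and 8.79 in IFNA heifers, 8.65, 8.19 and 8.62 in placebo heifers and 8.49, 8.75 and 8.32 in PBS heifers, which overlapped. For SLC25A5 and SLC25A33 the difference of IFNA from placebo was -0.67 and -0.4, and from PBS -0.02 ± 0.217 and 0.03 ± 0.159. With PBS as the control, an alternative chosen after the data were seen, 1 gene passed against day 15 (SLC66A3) and 2 against day 18 (SLC25A5 and SLC66A3). Single animals decided part of both counts. Against day 15, 1 gene was left without IFNA animal 2 or cyclic animal 3, and 2 were left without placebo animal 1, cyclic animal 2 or pregnant animal 1. Against day 18, 3 were left without placebo animal 1. The tissue also differed, biopsies against slaughter samples, and its part was not tested.

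Levels of cyclic heifers across the days were described without a test, after quantile normalisation over all 33 arrays. A gene counted as different where the means of 2 days lay 1 log2 or more apart and the arrays did not overlap. By this rule 8 of the 172 genes differed between day 12 and day 15 (4.65%, beside 4.32% of all probe sets and 4.02% of genes), 4 between day 15 and day 18 (2.33%, beside 2.55% and 1.61%) and 10 between day 12 and day 18 (5.81%, beside 4.1% and 4.09%). Whether these shares differ from those of all genes was not tested. The counts depend on the scaling. On the deposited values they were 17 (0 higher and 17 lower), 29 (29 and 0) and 17 (14 and 3), where the median of all probe sets itself moved by -0.21, 0.65 and 0.4, and by a difference of 10 percentile points within the array 19, 7 and 15.

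**Figure D5:**
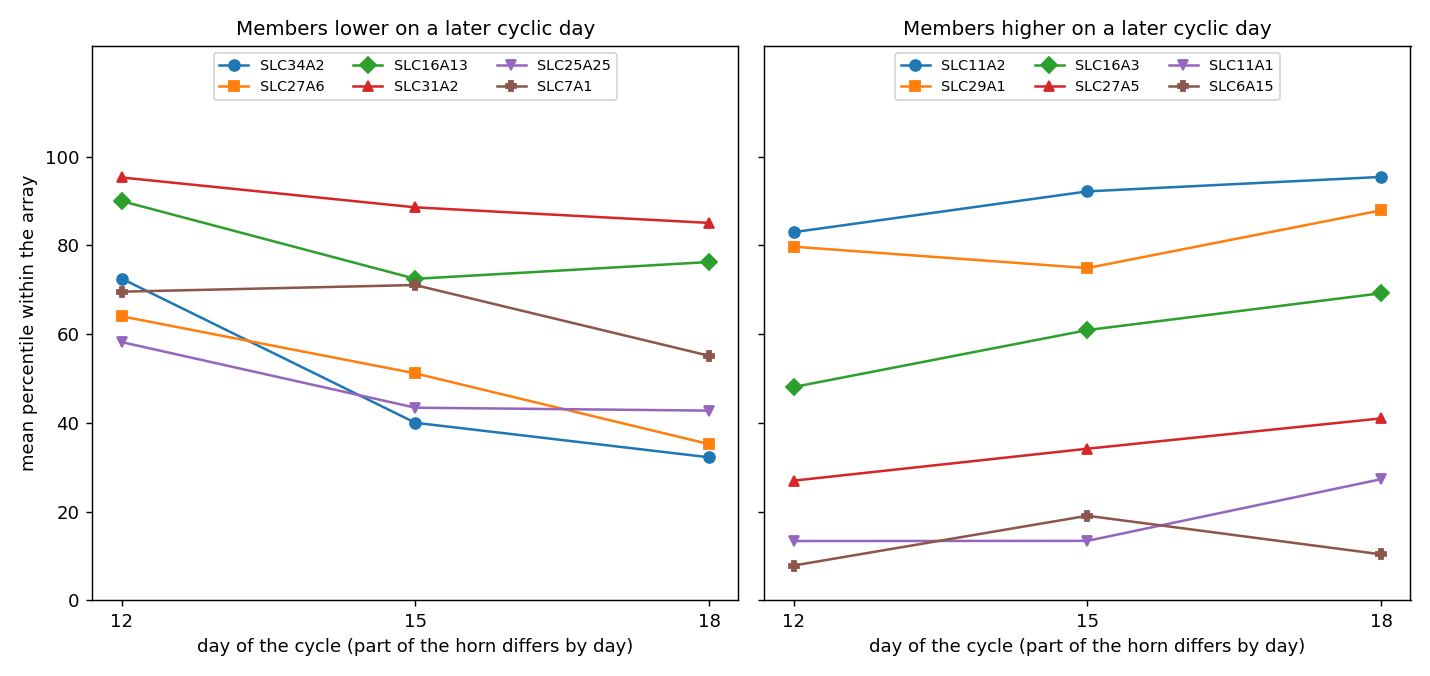
Mean percentile of a probe set within its array (vertical axis, 0 to 100) in cyclic heifers on day 12, 15 and 18 (horizontal axis; 5, 3 and 4 animals), for 6 genes lower on a later day (left) and 6 genes higher on a later day (right). SLC34A2 runs through 72.5, 40 and 32.2, and SLC11A2 through 83, 92.2 and 95.5.

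SLC34A2, the sodium phosphate cotransporter NaPi-IIb, showed the widest span. Its quantile-normalised mean on day 12, 15 and 18 ran through 8.33, 6.11 and 5.52 (SD 0.34, 0.24 and 0.23). On the deposited values, whose scale differs between days, every pregnant and cyclic animal of day 12 (7.49 to 8.6) lay above every animal of day 15 and 18 (5.17 to 6.26), and the biopsies gave 4.17 to 4.71. SLC27A6 ran through 7.78, 6.91 and 5.74 and SLC16A13 through 9.84, 8.33 and 8.59. SLC31A2, a copper carrier, stood at 9.3 on day 18, beside 10.62 on day 12, and SLC8B1, the mitochondrial sodium and calcium exchanger, at 9.88, beside 10.96.

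Among genes higher on a later day, the iron importer SLC11A2 stood at 10.63 on day 18, beside 9.14 on day 12, and SLC16A3 at 8.11, beside 6.69. SLC11A1 stood at 5.11 on day 18, beside 3.86 on both earlier days, and SLC27A5 at 6.18, beside 5.08 on day 12. SLC29A1, the nucleoside carrier ENT1, had 9.57 on day 18, beside 8.49 on day 15, and SLC7A1 went the other way with 7.18, beside 8.23. SLC6A15, SLC34A1, SLC37A2 and SLC5A5 stood 1.04 to 1.06 higher on day 15 than on day 12. Between the same days SLC25A29 and SLC25A25 had differences of -1.08 and -1.02. SLC6A15 and SLC5A5 were near the floor, at percentiles 11.2 and 9.8 of an array. Day, part of the horn and separate normalisation cannot be told apart in these differences.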

How the data were processed

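Deposited values are log2 signals for each probe set. Per the submitters' processing notes, the authors used RMA and the package affy, and no version is given. Sorted values matched within 4 sets of arrays and differed between them (largest SD of a sorted value 0.05 to 0.067 within sets, 0.334 over all 33 arrays), so the sets were treated as normalised separately. This is an inference from the values. Levels of different sets were therefore not tested against each other.

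Of 24128 probe sets, 112 controls were left out. The platform annotation gives 1 symbol to 13292 probe sets, several to 86 and none to 10638. Of them 13263 matched RefSeq (ARS-UCD2.0) by gene identifier, which added or removed no carrier. Group means without covariates were estimated by limma 3.58.1 (R 4.3.3) from 9 biopsy arrays, 24 slaughter arrays or, to set IFNA against pregnancy, all 33, and tests were two-sided. The fit was run on simulated arrays with independent noise and added changes of 1 log2 or more, which does not bear on smaller differences. Precision is limited by the few arrays, with a median standard error of 0.147 in the biopsies and 0.0906, 0.117 and 0.101 on days 12, 15 and 18. The labels name replicates as biological.

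The genes, classes, lists and tests were chosen with earlier results of these data known. Named genes were, per comparison, up to 10 rises and 10 falls past the threshold without overlap, the 2 largest changes per class, up to 6 genes each way between cyclic days, and a fixed set. Ranking genes by level, part of that rule, was left out because signals of different probe sets are not comparable. Alternatives were another normalisation, a filter at the 25th percentile, the mean over probe sets, array weights, the replicate number as a block, fewer arrays in the fit, the GAPDH signal as a covariate and leaving out each animal. Of the genes higher on day 18, the filter removed SLC5A5, SLC7A9, SLC25A30, SLC25A48 and SLC15A1. Over all arrays they averaged percentiles 9.8, 14.7, 15.5, 26.8 and 29.5. Sequences were not used here.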

Additional observations from a re-analysis of the deposited data

Results flagged for a closer look

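Single animals stood apart in 8 of 124 groups of 4 or 5 values of the named genes, where chance flags about 1 in 20. On day 12, pregnant animal 5 was the lowest of its group for SLC16A3 at 6.09 (next 6.64) and SLC7A1 at 7.52 (next 8.21), and cyclic animal 1 for SLC34A2 at 7.73 (next 8.37). On day 18, pregnant animal 3 was the lowest for SLC25A29 at 7.81 (next 8.15) and pregnant animal 1 the highest for SLC39A9 at 9.62 (next 9.49). Cyclic animal 2 was the highest for SLC25A28 at 10.85 (next 10.65) and SLC27A5 at 6.94 (next 6.61), and cyclic animal 1 for SLC25A33 at 9.62 (next 9.38).

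Differences that themselves differed between comparisons, by limma's interaction terms, were the following. The pregnancy difference of day 15 exceeded that of day 12 by 1.11 for SLC66A3, 1.15 for SLC25A5, 0.72 for SLC25A33 and 0.39 for SLC3A2 (adjusted p = 0.000332, 0.00844, 0.00947 and 0.039). The IFNA difference minus that of day 15 pregnancy was -1.72 for SLC25A5, -1.21 for SLC66A3, -0.9 for SLC25A33 and -0.77 for SLC25A3 (adjusted p = 0.00648, 0.0191, 0.0242 and 0.023). Minus that of day 18 pregnancy it was -2.03 for SLC25A5, -1.15 for SLC66A3, -0.9 for SLC25A33, -0.88 for SLC7A9, -0.71 for SLC25A3 and -0.55 for SLC35B1 (adjusted p = 0.00011, 0.00748, 0.00826, 0.0261, 0.0136 and 0.0468).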

How the results depend on the processing

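Over 85 pairs of a named gene and a comparison, there were 1314 values under alternatives. The direction and side of the threshold stayed the same in 1128 cases. A call was lost in 172 and gained in 3, and the sign was opposite in 11. The cause was not tested. The count of IFNA against placebo, 1, was 0 with quantile normalisation over all arrays, with the replicate block and with the 2 groups alone, and 2 with array weights. That of IFNA against PBS, 0, was 2 with array weights, 1 with the 2 groups alone and 1 with the GAPDH signal as a covariate. The day 15 count, 11, was 4 with the arrays of that day alone, and the change from day 12 to 15, 4, was 8 with these days alone. For IFNA minus the day 15 and day 18 pregnancy differences, 4 and 6, the counts were 9 and 14 with array weights, 0 and 3 with the replicate block and 1 and 2 with PBS as the control, which was chosen after seeing the data. The counts of cyclic day 15 over 12, 18 over 15 and 18 over 12 (8, 4 and 10) were 17, 29 and 17 on the deposited values, and the first 2 were 19 and 7 by percentile points.

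Leaving out 1 animal at a time gave 0 to 1 for IFNA against placebo, 5 to 13 on day 15, 29 to 43 on day 18, 3 to 6 for the change from day 12 to 15, 0 to 1 from day 15 to 18, 1 to 5 for IFNA minus day 15 and 3 to 7 for IFNA minus day 18 pregnancy. It turned the sign of uncalled genes in 11 cases. Over the animals left out, the day 15 differences ran from -0.56 to 0.3 for SLC1A1, -0.09 to 0.13 for SLC15A1, 0 to 0.22 for SLC16A3 and -0.03 to 0.14 for SLC11A1, and the day 18 differences from -0.15 to 0.09 for SLC11A2 and -0.33 to 0.78 for SLC27A6. Correlations of same-numbered animals ran from -0.337 to 0.368 and no comparison had all above 0.1. With 3 to 5 pairs a comparison, this cannot exclude that the replicate numbers pair animals. With the block, the day 18 count was 37, and SLC25A5 lost its call for the change from day 12 to 15 (1.15, adjusted p = 0.0683). The few arrays limit the precision, and promoter motifs were not run because no sequence was used here.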
